A study of Homo sapiens with 8 samples.

Results

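Genes of homologous recombination and of the Fanconi anaemia pathway were described in JVM13, an established line of human prolymphocytic leukaemia B cells, after induction of cyclin D1. A list of 39 genes was drawn up by function. Each gene was read through the probe set that was annotated to it alone and had the highest mean over all arrays, which gave 35 genes of 18231 measured in all; the other 4 are not analysed here. The 8 arrays came from 3 samples with an inducible vector for T286A cyclin D1, 3 with the same vector for wild-type cyclin D1 and 2 with the empty vector. T286A replaces the threonine through which the protein is marked for export and breakdown, and all cells, those with empty vector included, received doxycycline at 0.1 µg/mL. The labels do not say whether replicates were separate cultures, or whether a vector was brought into cells more than once, so p-values measure only the spread between these arrays, which may be technical. Values are log2 expression after robust multi-array averaging (RMA), and differences are log2 differences ± SE from limma. A gene is said to have risen or fallen, or to be called, at an adjusted p under 0.05 over all 18231 genes.

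Homologous recombination copies an intact sister DNA molecule to mend a double-strand break. Nucleases first trim the broken end to a single strand, BRCA1, PALB2 and their partners load a recombinase onto it, and helicases and nucleases later take the joined molecules apart. The Fanconi anaemia pathway uses the same machinery to clear crosslinks between DNA strands: a core complex attaches ubiquitin to the dimer that holds FANCI, which then brings in nucleases. Many of these genes are read mainly in late G1 and S phase, when the sister molecule is being made, and cyclin D1 with CDK4 or CDK6 acts at the entry into that phase.

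CCND1, the induced gene, had log2 values of 11.25, 10.86 and 10.95 in T286A cells and 10.98, 11.13 and 11.07 in wild-type cells, against 5.25 and 4.98 in empty vector cells. It averaged 11.02 ± 0.20 in T286A cells and 11.06 ± 0.075 in wild-type cyclin D1 cells (SD, n = 3 each), against 5.12 ± 0.19 in empty vector cells (SD, n = 2). Wild-type replicate 2 stood apart from its group, with correlations of 0.9942 to 0.9945 with the other wild-type arrays, against 0.9968 between those. Counts below are given again without it. Signals of the 3 dimmer probe sets of CCND1 were 3.85 to 4.69 over the 8 arrays, and none was called. The median level of all genes was 5.94, and all 7 measured B-cell markers reached it. Their summed linear signal was 18200 to 18500 in T286A arrays and 19400 to 19700 in wild-type arrays, against 19200 to 19800 in empty vector arrays. Of 7 T- and NK-cell markers 0 reached that median, with sums of 192 to 200 in T286A arrays and 190 to 205 in wild-type arrays, against 199 to 200 in empty vector arrays. Of 6 myeloid markers 1, ITGAM, did, and the sums were 303 to 338 in T286A arrays and 238 to 314 in wild-type arrays, against 313 to 323 in empty vector arrays. All 3 plasma cell markers reached it, with sums of 4930 to 5130 in T286A arrays and 5710 to 5830 in wild-type arrays, against 5140 to 5190 in empty vector arrays. With wild type, limma called the B-cell marker CD22 lower (-0.40, adjusted p = 0.0498) and the plasma cell marker SDC1 higher (0.38, adjusted p = 0.0411). No other marker was called in any of the 4 comparisons. The part of these shifts in the results was not tested. In bulk RNA, more transcript per cell and a larger share of cells in the phase that reads a gene cannot be told apart.

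With both constructs pooled, 5 of the 35 genes rose against empty vector and 0 fell. They were RMI2, BRIP1, EXO1, BLM and RAD51AP1. Over all genes 1.4% were called in this comparison, 0.702% higher and 0.697% lower. Differences above 0 were found for 30 of the 35 genes, against 49.9% of all genes, and their median was 0.284, against -0.000149. At an unadjusted p under 0.05, 18 of the 35 were higher and 0 lower, against 5.72% and 6.74% of all genes. For 18 genes every construct array lay above both empty vector arrays, which held for 6.68% of all genes, and for 0 every construct array lay below them, which held for 6.88%. All 35 had mean levels above the median of all genes, from 6.23 to 11.16. Among the 9116 genes at or above that median the share called was 2.54%, and 9.27% had all construct arrays above both controls. Without wild-type replicate 2 the median was 0.258, and 20 genes were higher at an unadjusted p under 0.05, against 6.55% of all genes, but the called genes were 3: RMI2, BRIP1 and EXO1. Leaving out any 1 T286A array left 2 called genes, RMI2 and BRIP1. Those fits called 88, 78 and 65 of all genes without T286A replicate 1, 2 and 3. Leaving out an empty vector array leaves a single control, so calls then rest on an assumed spread of that control. Without empty vector replicate 1 the median was 0.253. The 48 further probe sets of 21 of these genes, read in a fit of all probe sets, gave 37 differences above 0, with 14 higher and 1 lower at an unadjusted p under 0.05 and 0 called by limma. The matching shares over all probe sets of that fit were not taken. These probe sets read the same genes on the same arrays, so their counts are not independent of those above.

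RMI2, the small subunit that completes the BLM dissolvasome, had the largest rise on the list and stood at rank 10 of the 18231 genes by size of rise. The gene lies on chromosome 16, 11345459 to 11351760 (GRCh38.p14). It had log2 values of 9.84, 9.96 and 9.83 in T286A cells and 9.68, 9.63 and 9.88 in wild-type cells, against 9.05 and 9.14 in empty vector cells. All 6 construct arrays were above both controls, and the constructs overlapped each other. The difference was 0.71 ± 0.081, or 1.64-fold, for both constructs (adjusted p = 0.0132 by limma), 0.78 ± 0.091 with T286A (adjusted p = 0.0203) and 0.64 ± 0.091 with wild type (adjusted p = 0.0152).

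Of its 3 partners in the complex, BLM was called. BLM, the RecQ helicase that migrates joined molecules toward each other, lies on chromosome 15, 90717346 to 90816166. Its values were 9.36, 9.31 and 9.39 in T286A cells and 9.33, 9.37 and 9.51 in wild-type cells, against 8.95 and 9.0 in empty vector cells. The groups did not overlap with empty vector, and BLM rose by 0.40 ± 0.068 with both constructs (adjusted p = 0.0357) and by 0.43 ± 0.077 with wild type (adjusted p = 0.0353). With T286A alone the difference was 0.38 ± 0.077, which was not called (adjusted p = 0.0814). RMI1, the scaffold that holds RMI2 and the topoisomerase, was 0.31 ± 0.071 higher and not called (adjusted p = 0.091), with 3 further probe sets between 0.32 and 0.42. TOP3A, the topoisomerase that unlinks the strands, was at 0.02 (adjusted p = 0.945). Its second, dimmer probe set was at 0.26 with both constructs (unadjusted p = 0.0535), and at 0.37 with T286A (unadjusted p = 0.019) and 0.14 with wild type (unadjusted p = 0.294). WRN, a RecQ helicase outside this complex, had 8.38, 8.64 and 8.53 in T286A cells and 8.50, 8.72 and 8.70 in wild-type cells, against 8.64 and 8.55 in empty vector cells. These WRN values overlapped in every pairing of groups.

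**Figure D1:**
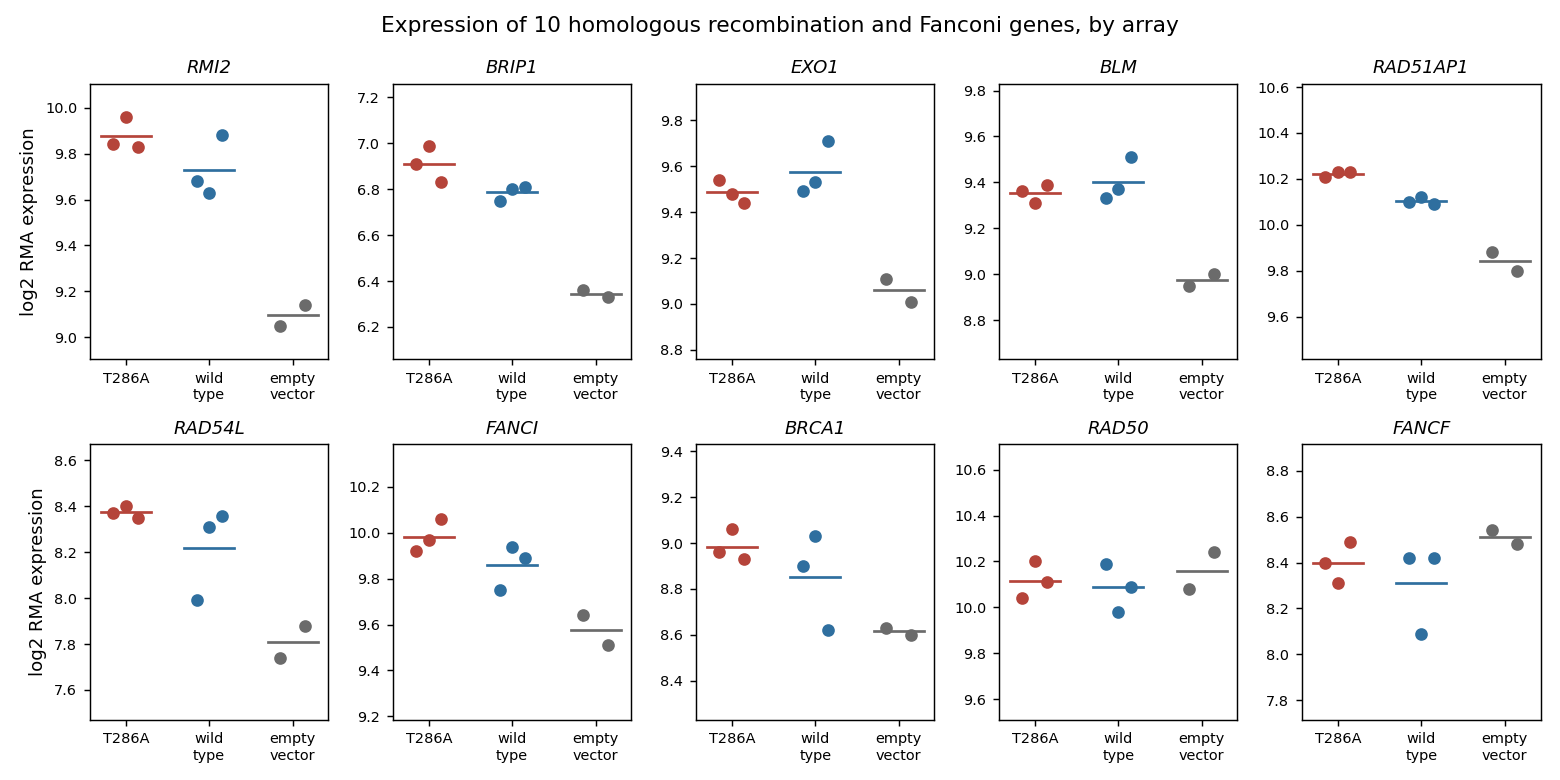
Log2 RMA expression (y axis) of 10 genes in T286A, wild-type cyclin D1 and empty vector cells (x axis); each point is an array, each line a group mean, and every panel spans the same height of 1.2. For RMI2, BRIP1, EXO1, BLM, RAD51AP1, RAD54L and FANCI all construct arrays lie above both empty vector arrays, whereas the groups overlap for RAD50. For BRCA1, 1 wild-type array lies between the controls. For FANCF the T286A arrays overlap the controls and the wild-type arrays lie below both.

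Among the proteins that load the recombinase at the break, BRIP1 moved most. BRIP1, the helicase that binds BRCA1 and is also a Fanconi gene, lies on chromosome 17, 61679139 to 61863528. It had 6.91, 6.99 and 6.83 in T286A cells and 6.75, 6.80 and 6.81 in wild-type cells, against 6.36 and 6.33 in empty vector cells. The groups were separate, with the T286A arrays highest and the controls lowest. BRIP1 rose by 0.50 ± 0.063 with both constructs (adjusted p = 0.0144), by 0.57 ± 0.071 with T286A (adjusted p = 0.0243) and by 0.44 ± 0.071 with wild type (adjusted p = 0.0235). Its second probe set was dimmer and differed by 0.65 with both constructs, with an unadjusted p of 0.00824.

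BRCA1, the ubiquitin ligase at the head of this pathway, was not called. It had 8.96, 9.06 and 8.93 in T286A cells and 8.90, 9.03 and 8.62 in wild-type cells, against 8.63 and 8.60 in empty vector cells. Wild-type replicate 3 lay among the controls, while the other 5 construct arrays were above them. The difference was 0.30 ± 0.10 with both constructs (adjusted p = 0.252). The other 4 BRCA1 probe sets were at 0.52, 0.42, 0.22 and 0.27, so all 5 pointed upward, and BRCA1 was called when a gene's probe sets were averaged. BARD1, its obligate partner, was 0.35 ± 0.079 higher (adjusted p = 0.0844) with no overlap between constructs and controls. PALB2, which joins BRCA1 to the loader, had 8.07, 7.66 and 8.06 in T286A cells and 7.99, 8.24 and 7.85 in wild-type cells, against 7.79 and 7.90 in empty vector cells. The PALB2 groups overlapped, and its difference was 0.13 (adjusted p = 0.779).

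RAD51AP1, which binds the recombinase and stimulates strand pairing, lies on chromosome 12, 4538890 to 4560047. It had 10.21, 10.23 and 10.23 in T286A cells and 10.10, 10.12 and 10.09 in wild-type cells, against 9.88 and 9.80 in empty vector cells. Spread within the constructs was small, at an SD of 0.011 in T286A cells and 0.017 in wild-type cells, and the 3 groups did not overlap. RAD51AP1 rose by 0.32 ± 0.056 with both constructs (adjusted p = 0.0363) and by 0.38 ± 0.062 with T286A (adjusted p = 0.0479). With wild type it was 0.26 ± 0.062 higher and not called (adjusted p = 0.0929). Its other 3 probe sets were at 0.27, 0.28 and 0.31 with both constructs. RAD54L, a motor protein that remodels the paired strands, had 8.37, 8.40 and 8.35 in T286A cells and 7.99, 8.31 and 8.36 in wild-type cells, against 7.74 and 7.88 in empty vector cells. The lowest construct array, wild-type replicate 1, was still above the controls. The difference of 0.49 ± 0.10 was not called (adjusted p = 0.0645). RAD54B, a related motor, was at 0.33 ± 0.078 (adjusted p = 0.0961), also without overlap.

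The paralogs of the recombinase (RAD51B, RAD51C, RAD51D, XRCC2 and XRCC3), which steady its filament on the DNA, gave 0 calls among 5 genes. XRCC2 had 7.56, 7.41 and 7.67 in T286A cells and 7.50, 7.28 and 7.52 in wild-type cells, against 7.18 and 7.16 in empty vector cells. All of its construct arrays were above the controls, with a difference of 0.32 ± 0.093 (adjusted p = 0.174). RAD51C was at 0.20 ± 0.065 without overlap, and XRCC3 and RAD51B were at 0.28 ± 0.14 and 0.27 ± 0.20 with overlapping arrays. RAD51D had 6.96, 7.16 and 7.18 in T286A cells and 7.41, 7.30 and 7.0 in wild-type cells, against 7.39 and 7.21 in empty vector cells. The RAD51D groups overlapped, apart from T286A cells lying below the controls, and its difference was -0.13 ± 0.12 (adjusted p = 0.745). The 5 RAD51D probe sets disagreed, at -0.13, 0.27, -0.21, 0.04 and 0.02.

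Among 4 genes of end resection, EXO1 was called. EXO1, which digests one strand over long distances, lies on chromosome 1, 241847986 to 241889939. It had 9.54, 9.48 and 9.44 in T286A cells and 9.49, 9.53 and 9.71 in wild-type cells, against 9.11 and 9.01 in empty vector cells. No construct array reached down to the controls. EXO1 rose by 0.47 ± 0.076 with both constructs (adjusted p = 0.0299) and by 0.52 ± 0.085 with wild type (adjusted p = 0.0264), and was 0.43 ± 0.085 higher with T286A (adjusted p = 0.0785). MRE11, RAD50 and NBN form the complex that first grips a broken end, and none was called. MRE11 was at 0.16 ± 0.071 (adjusted p = 0.423), with construct arrays all above the controls, and its other 4 probe sets were at 0.21, 0.26, 0.10 and 0.03. RAD50 had 10.04, 10.20 and 10.11 in T286A cells and 10.19, 9.98 and 10.09 in wild-type cells, against 10.08 and 10.24 in empty vector cells, and the groups overlapped throughout. Its difference was -0.06 ± 0.081 (95% interval -0.25 to 0.13). NBN was at -0.05 ± 0.065, and its other 4 probe sets lay between -0.10 and -0.02.

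**Figure D2:**
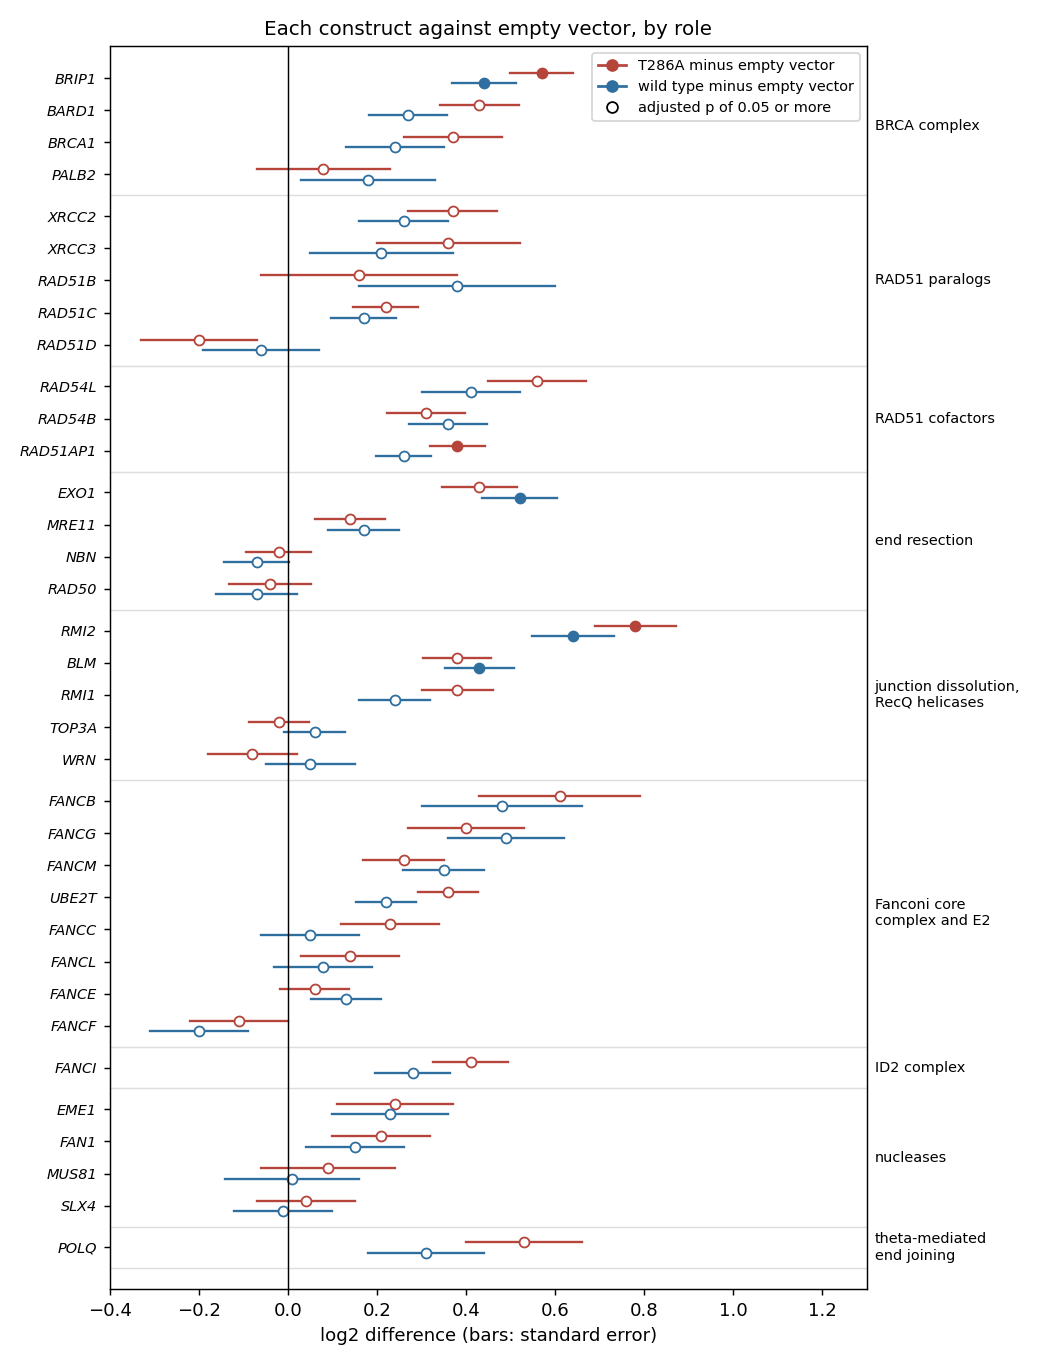
Log2 difference from empty vector (x axis) of the 35 genes (y axis, grouped by role), with T286A in red above wild-type cyclin D1 in blue; bars are standard errors and filled points were called. Both constructs share the same 2 control arrays, so their points are not independent. RMI2 and BRIP1 were called with both constructs, and NBN and RAD50 lie near 0.

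The Fanconi core complex and its ubiquitin-conjugating enzyme UBE2T gave 0 calls among 8 genes, with a median difference of 0.213 for both constructs. FANCB, a core subunit encoded on chromosome X, had the widest spread within each construct in this group, at an SD of 0.23 in T286A cells and 0.29 in wild-type cells. It had 7.30, 7.69 and 7.28 in T286A cells and 7.63, 7.16 and 7.09 in wild-type cells, against 6.82 and 6.80 in empty vector cells. All 6 construct arrays were above the controls. The difference of 0.55 ± 0.16, second in size to RMI2, was not called (adjusted p = 0.173). UBE2T was 0.29 ± 0.060 higher (adjusted p = 0.0658), and FANCG and FANCM were at 0.44 ± 0.12 and 0.30 ± 0.082, all without overlap between constructs and controls. FANCL, the ubiquitin ligase subunit, was at 0.11 ± 0.10, FANCC at 0.14 ± 0.10 and FANCE at 0.10 ± 0.070, each with overlapping arrays. FANCC had a dimmer probe set at 0.44 with an unadjusted p of 0.00493. FANCF, an adaptor of the core complex, had 8.40, 8.31 and 8.49 in T286A cells and 8.42, 8.09 and 8.42 in wild-type cells, against 8.54 and 8.48 in empty vector cells. T286A and control arrays of FANCF overlapped, the wild-type arrays were below both controls, and the difference was -0.15 ± 0.10 (adjusted p = 0.617). Its other 2 probe sets, one at nearly the same level, were at 0.07 and -0.06.

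FANCI, a subunit of the dimer that receives the ubiquitin, had 9.92, 9.97 and 10.06 in T286A cells and 9.75, 9.94 and 9.89 in wild-type cells, against 9.64 and 9.51 in empty vector cells. Construct and control arrays did not overlap, and the difference was 0.34 ± 0.075 (adjusted p = 0.0775). Its other 2 probe sets were at 0.44 and 0.43, and FANCI was called when its probe sets were averaged. POLQ, the polymerase of a back-up end-joining route, had 8.65, 9.09 and 8.80 in T286A cells and 8.54, 8.79 and 8.54 in wild-type cells, against 8.33 and 8.30 in empty vector cells. Every construct array of POLQ was above the controls, with a difference of 0.42 ± 0.12 (adjusted p = 0.162). Its second, dimmer probe set was at 1.08, with an unadjusted p of 0.0187.

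The nucleases that cut crosslinks and joined molecules had a median difference of 0.115 with both constructs. SLX4, the nuclease scaffold, had 7.10, 7.21 and 7.33 in T286A cells and 7.34, 7.19 and 6.99 in wild-type cells, against 7.18 and 7.18 in empty vector cells, with construct arrays on both sides of the controls. Its difference was 0.02 ± 0.10. MUS81 was at 0.05 ± 0.13 and FAN1 at 0.18 ± 0.096, and limma called 0 of the 4 genes (0 at an unadjusted p under 0.05). EME1, the partner of MUS81, had 7.60, 7.74 and 7.74 in T286A cells and 7.64, 7.77 and 7.63 in wild-type cells, against 7.68 and 7.23 in empty vector cells. One control of EME1 lay among the construct arrays and the other well below them. Its difference was 0.23 ± 0.11 (adjusted p = 0.469), and it was 0.0045 without empty vector replicate 2 and 0.46 without replicate 1.

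Taken separately, T286A against empty vector gave 3 calls, all higher (BRIP1, RAD51AP1 and RMI2), where 0.532% of all genes were called, 0.34% higher and 0.192% lower. Wild type against empty vector gave 4 calls, all higher (BRIP1, EXO1, BLM and RMI2), where 1.74% of all genes were called, 0.603% higher and 1.14% lower. Both comparisons use the same 2 controls. The medians over the 35 genes were 0.259 with T286A and 0.226 with wild type, against -0.00301 and 0.0016 over all genes. At an unadjusted p under 0.05, 18 genes were higher with T286A and 17 with wild type, against 5.95% and 6.08% of all genes, and 0 were lower in either comparison, against 6.15% and 7.42%. Differences were above 0 for 29 genes with T286A and 30 with wild type, against 49.1% and 50.5% of all genes. All T286A arrays were above the controls for 21 genes and below them for 1 (RAD51D), against 15.2% and 16.7% of all genes. All wild-type arrays were above the controls for 19 genes and below them for 1 (FANCF), against 15.2% and 15.3%. Without wild-type replicate 2, T286A gave 2 calls and wild type gave 1, RMI2. With any 1 T286A array left out, T286A gave 0 calls, in fits that called 3 of all genes each. Without empty vector replicate 2, which leaves a single control, the T286A median was 0.332. A fit on the arrays of one construct and the controls alone called 0 of the 35 in either comparison. Over all genes it called 4 with T286A and 68 with wild type.

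T286A against wild type, 3 arrays against 3, asked whether the stable form moved these genes further. Limma called 0 of the 35, where 0.987% of all genes were called, 0.598% higher and 0.389% lower. At an unadjusted p under 0.05, 1 gene was higher and 0 lower, against 7.16% and 6.46% of all genes. Point differences ran from -0.22 for RAD51B to 0.23 for POLQ. The 95% intervals differed in width between genes, from -0.68 to 0.24 for RAD51B, the widest of the 35, to -0.01 to 0.24 for RAD51AP1, the narrowest. For RMI2 the difference was 0.15 (95% interval -0.04 to 0.33), and for EXO1 -0.09 (95% interval -0.27 to 0.08). UBE2T, at 0.14 with an unadjusted p of 0.0473 (adjusted p = 0.36), BRIP1 and RAD51AP1 were the 3 genes whose T286A arrays all lay above all wild-type arrays, which held for 9.94% of all genes, while for 0 genes all lay below, which held for 9.82%. Without wild-type replicate 2, where 3 arrays face 2, such higher genes numbered 7, against 15.2% of all genes, and such lower genes 1, against 17%. Differences were above 0 for 23 of 35 genes, against 50% of all genes, with a median of 0.058, against 0.000215 for all genes. When each array was centred on its median this became 16 of 35 and -0.00682, a setting that moved the median of all genes by -0.0646.

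**Figure D3:**
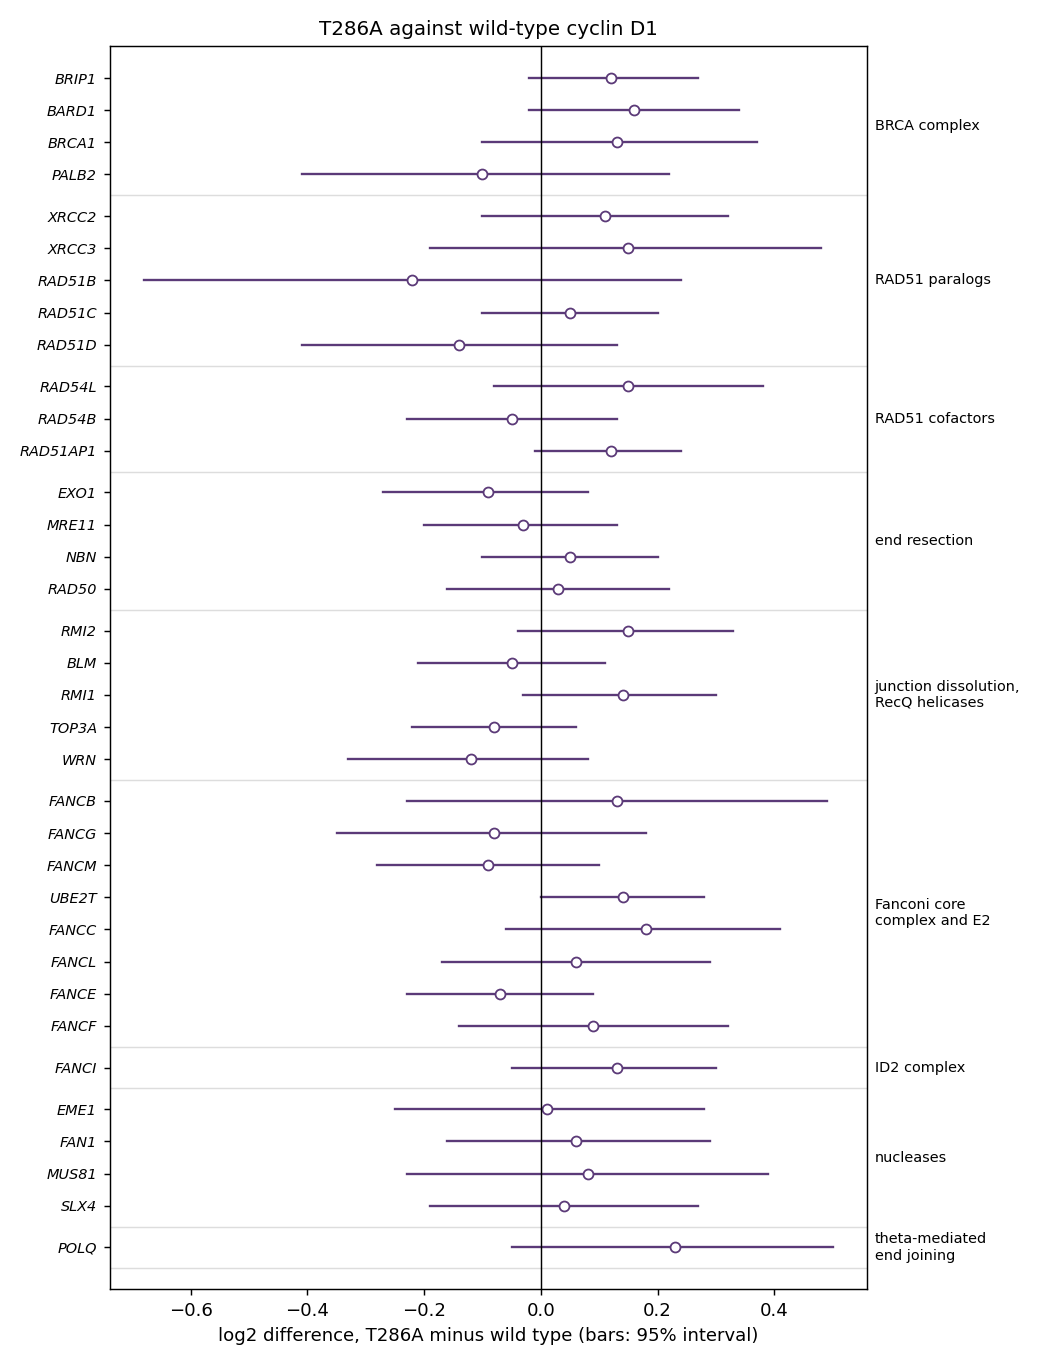
Log2 difference, T286A minus wild-type cyclin D1 (x axis), of the 35 genes (y axis, grouped by role); points are differences between means of 3 arrays each and bars are 95% intervals. No gene was called, and the intervals stay between -0.68 and 0.50.

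Promoters are shown because the called genes could be set beside a sequence feature that chose none of them. E2F factors, the main transcription factors released when cyclin D kinases inactivate the retinoblastoma protein, bind words of the kind searched here. The first word was TTCCCGC, the second was TTCGCGC, the third was TTGCCGC and the fourth was TTGGCGC, each searched on both strands in a window of 250 bases before to 50 after the start site in RefSeq (GRCh38.p14). A window was matched for 30 of the 35 genes; RMI2, FANCI, RAD54B, NBN and WRN were not matched. Of the 30, 17 held at least 1 such word (56.7%), against 17.5% of the windows of 14491 genes on the array and 13.1% of all 27305. All 35 listed genes lie above the median level, and no share was taken for array genes of like level. A longer form with a further T in front, which contains the shorter word, was in 3 of the 30 (10%), against 4.54% of array genes. CCAAT, on either strand, was in 12 (40%), against 36.4% of array genes. The cell cycle word TTTGAA, or its variant TTCGAA, on either strand, was in 4 (13.3%), against 13.6%. A match is a string of letters and not evidence of binding.

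The stretches from 90 bases before to 30 bases after the start site follow, 5′ to 3′ on the gene's strand, for the 4 called genes with a window and for 3 that were not called, with the E2F-type words in capitals. BRIP1 (chr17:61863499-61863618, minus strand), RAD51AP1 (chr12:4538800-4538919, plus), EXO1 (chr1:241848114-241848233, plus) and BLM (chr15:90717256-90717375, plus) each held at least 1. FANCB (chrX:14873040-14873159, minus) and RAD50 (chr5:132556887-132557006, plus) held none. FANCF (chr11:22625794-22625913, minus) held 1. These 3 were picked and do not stand for all genes that were not called. Over the full windows 17 of the 30 genes held a word, and 4 of those 17 were called.
BRIP1: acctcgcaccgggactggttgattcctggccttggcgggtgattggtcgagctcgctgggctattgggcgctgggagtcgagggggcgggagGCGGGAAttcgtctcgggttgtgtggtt
RAD51AP1: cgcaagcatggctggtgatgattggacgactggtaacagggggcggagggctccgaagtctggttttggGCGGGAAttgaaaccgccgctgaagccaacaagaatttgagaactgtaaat
EXO1: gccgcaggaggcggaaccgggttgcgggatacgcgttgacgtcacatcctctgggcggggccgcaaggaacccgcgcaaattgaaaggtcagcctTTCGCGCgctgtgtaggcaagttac
BLM: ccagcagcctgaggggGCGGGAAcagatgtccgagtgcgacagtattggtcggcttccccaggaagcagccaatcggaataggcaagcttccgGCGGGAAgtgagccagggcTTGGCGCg
FANCB: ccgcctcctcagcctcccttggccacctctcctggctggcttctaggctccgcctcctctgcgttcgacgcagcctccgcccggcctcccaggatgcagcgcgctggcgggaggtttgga
RAD50: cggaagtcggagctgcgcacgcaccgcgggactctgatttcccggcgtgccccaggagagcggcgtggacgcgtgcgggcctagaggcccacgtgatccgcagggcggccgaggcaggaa
FANCF: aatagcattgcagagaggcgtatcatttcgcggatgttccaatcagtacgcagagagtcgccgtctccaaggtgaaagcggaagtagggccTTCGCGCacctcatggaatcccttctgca

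BLM held 3 of these words, and BRIP1, RAD51AP1 and EXO1 held 1 each, in BRIP1 and EXO1 just after the start site of the window. The EXO1 stretch begins at 241848114, past the gene's first base at 241847986, so its window is on a later start site. The 17 genes with a word had a median difference of 0.32 with both constructs, from -0.15 to 0.50, and 4 of them were called. The 13 genes without one had a median of 0.20, from -0.06 to 0.55, and 0 were called. The ranges overlapped: FANCF, with a word, was at -0.15, and FANCB, with none, was at 0.55. FANCF gave -0.05 when its 3 probe sets were averaged. The 12 genes with CCAAT had a median of 0.295 and 3 were called, against 0.215 and 1 of the 18 without it. For the cell cycle word, 4 genes had a median of 0.355 and 1 was called, against 0.25 and 3 of 26 without. For the longer E2F form, 3 genes had a median of 0.32 and 1 was called, against 0.27 and 3 of 27 without. No such split was made over all array genes, and the part of any word was not tested.

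**Figure D4:**
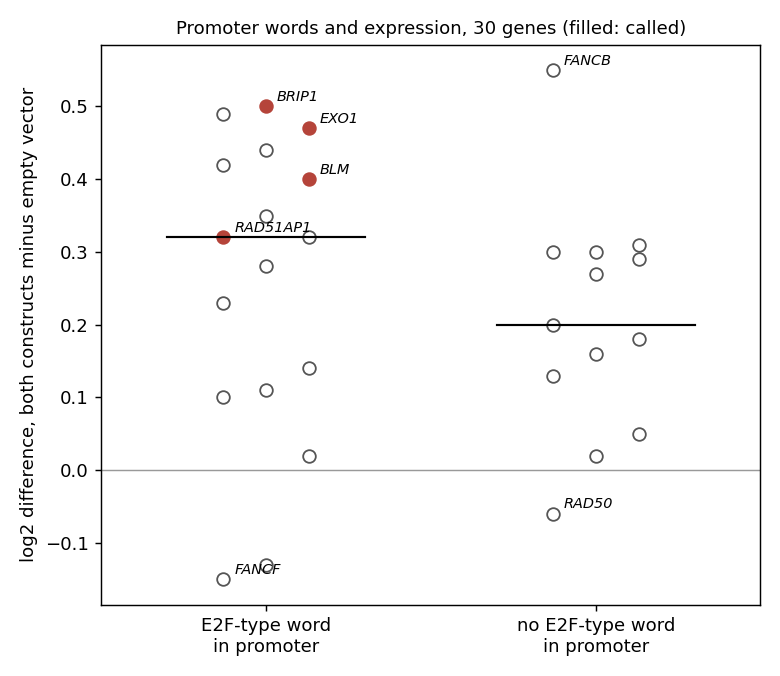
Log2 difference, both constructs minus empty vector (y axis), of the 30 genes with a promoter window, split by whether an E2F-type word was found (x axis); each point is a gene, filled points were called, and lines are medians. The medians are 0.32 with a word and 0.20 without, and the points of both columns overlap.

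Other genes of the same pathways, a list of 51 of which 46 were measured, were read the same way. Limma called 1 of the 46 with both constructs (2.17%), MMS22L, against 1.4% of all genes. It called 0 of the 46 with T286A, against 0.532%, and 1 with wild type, the same gene, against 1.74%. These counts are near the shares of all genes. With both constructs 14 were higher and 1 lower at p under 0.05 before adjustment, against 5.72% and 6.74% of all genes. With T286A 13 were higher and 2 lower, against 5.95% and 6.15%, and with wild type 10 were higher and 0 lower, against 6.08% and 7.42%. MMS22L, which with TONSL helps load the recombinase at stalled forks, had 8.61, 8.56 and 8.67 in T286A cells and 8.75, 8.61 and 8.79 in wild-type cells, against 8.11 and 8.34 in empty vector cells. All construct arrays were above both controls, and MMS22L rose by 0.44 ± 0.082 with both constructs (adjusted p = 0.0477) and by 0.49 ± 0.092 with wild type (adjusted p = 0.0433). The median over the 24 further recombination factors was 0.148, with 11 higher and 0 lower at an unadjusted p under 0.05, against the same 5.72% and 6.74% of all genes. Over 14 further Fanconi and crosslink factors it was 0.0217, and over 8 genes of the BRCA1-A and 53BP1-shieldin complexes, which restrain resection, it was -0.00629. In the rival route of non-homologous end joining, 0 of 10 genes were called by limma in any of the 4 comparisons. Over all genes 1.4% were called with both constructs, 0.532% with T286A, 1.74% with wild type and 0.987% between the constructs. The 0 of 10 is near those shares. All construct arrays were above both controls for 3 of the 10 and below them for 1, against 6.68% and 6.88% of all genes. With both constructs the median of these 10 was 0.035, with 2 higher and 0 lower at an unadjusted p under 0.05, which is to be read against the same shares. These lists were not tested against each other.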

How the data were processed

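RNA of 8 JVM13 samples was measured on an Affymetrix human array, and each deposited value is a log2 expression level. The submitters' processing notes name RMA and R 3.5.0. RMA brings all arrays to a like distribution, so changes in total mRNA per cell are largely removed and each difference is relative to other genes. The deposited values still had array medians from 5.47 to 5.62. Background left in dim probe sets makes differences too small. No detection calls come with these values, and precision is limited by having 8 arrays.

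Of 48864 probe sets, 10 controls were left out, and 45220 of the others named 1 gene in the platform annotation, 1325 several and 2309 none. The probe set with the highest mean was taken for each of 18231 genes; 21 of the 35 listed genes had more than 1, 83 probe sets in all. A mean per group was fitted over all 8 arrays with limma 3.58.1 in R 4.3.3 (lmFit, eBayes; 5 residual and 3.27 prior degrees of freedom, two-sided, Benjamini-Hochberg over all genes). The fit was tested on simulated data. Groups and replicate numbers came from the titles. Whether the replicate numbers pair the arrays is not known. Correlations of deviations ran from -0.0909 to 0.119 between same-numbered arrays and from -0.11 to 0.0962 between the others. Deviations within groups of 2 or 3 arrays are tied to each other, so these values cannot settle it. The genes, gene lists and tests were chosen with earlier results of these data known. Array values are given for CCND1, for each listed gene called in any comparison, for BRCA1 and FANCI, and for the highest and lowest difference of each role group, plus called genes of the further lists.

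Alternatives were averaged probe sets, arrays centred on their median or on 22 housekeeping genes, no genes under the median level, a trended robust variance, array weights, a replicate block, only the compared arrays, all probe sets in one fit, and each array left out. Counts without wild-type replicate 2 at an unadjusted p or by overlap were added after seeing the data.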

Additional observations from a re-analysis of the deposited data

How the results depend on the processing

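In every setting run, called genes of the list were higher than empty vector, never lower, and which ones passed varied. The counts called for both constructs, T286A and wild type, 5, 3 and 4 as reported, were 10, 10 and 5 with averaged probe sets, 11, 10 and 7 without genes under the median level, 14, 12 and 10 with a trended robust variance, and 8, 10 and 4 with array weights. They were 5, 2 and 5 with median centring and 5, 2 and 4 with housekeeping centring. The wild-type call of BRIP1 was lost with averaged probe sets (adjusted p = 0.0857), and the T286A call of RAD51AP1 with median centring (adjusted p = 0.0636) and with housekeeping centring (adjusted p = 0.0539). They were 2, 2 and 3 with all probe sets in one fit, and 0 for T286A and for wild type with only the compared arrays. Leaving out 1 array gave 0 to 4 genes for both constructs, 0 to 2 for T286A and 0 to 3 for wild type, with 0 whenever an empty vector array was left out (the lone control is assumed to vary like the other groups). With any 1 T286A array left out, T286A gave 0 calls and both constructs gave 2, RMI2 and BRIP1. T286A gave 1, RMI2, without wild-type replicate 1 or 3; wild type gave 1, RMI2, without wild-type replicate 2 or 3 or T286A replicate 1, and 2, RMI2 and BRIP1, without T286A replicate 2 or 3. The replicate block, on numbers not known to pair the arrays, gave 0, 0 and 0. Over all genes it gave 7 for both constructs, 3 for T286A, 71 for wild type and 86 for T286A against wild type.

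The median over the 35 genes with both constructs was 0.239 with averaged probe sets and 0.319 with median centring, and 0.253 to 0.295 with an array left out. With wild type it was 0.293 with median centring and 0.214 to 0.251 with an array left out, with T286A 0.259 to 0.332, and for T286A against wild type -0.00682 with median centring and 0.035 to 0.0925 with an array left out. Without wild-type replicate 2, 7 genes had all T286A arrays above the wild-type arrays, against 15.2% of all genes.

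Counts over all genes for both constructs, T286A, wild type and T286A against wild type, 255, 97, 317 and 180 as reported, were 624, 527, 629 and 381 without genes under the median level and 738, 626, 747 and 602 with a trended robust variance. Array weights gave 436 and 317 for both constructs and T286A, averaged probe sets 190 for T286A, and all probe sets in one fit 124, 28 and 199 for both constructs, T286A and wild type. With only the compared arrays T286A gave 4 and wild type 68. An array left out gave 3 to 199, 1 to 87, 22 to 196 and 70 to 128.

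Of the named genes, 27 values changed sign, 0 of them called in either fit. Median centring put WRN at 0.02 with both constructs, RAD51D at 0.0047 with wild type, and EME1 and RAD50 at -0.05 and -0.03 for T286A against wild type. Averaged probe sets put RAD51D at 0.04 with wild type, RAD50 at 0.0014 with T286A and XRCC2 at -0.03 for T286A against wild type. Housekeeping centring put EME1 at -0.0072 and array weights put RAD50 at -0.0013, both for T286A against wild type. With an array left out, and for both constructs, RAD50 ran from -0.14 to 0.02 and WRN from -0.06 to 0.03; for T286A, RAD50 ran from -0.12 to 0.04. For wild type, EME1 ran from -0.0014 to 0.45, RAD50 from -0.15 to 0.0074 and RAD51D from -0.15 to 0.06. For T286A against wild type, BLM ran from -0.09 to 0.0043, EME1 from -0.01 to 0.06, FANCB from -0.0049 to 0.30, FANCF from -0.02 to 0.15 and RAD50 from -0.02 to 0.08. The cause of these differences was not tested.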
